A study of Mus musculus with 2 samples.

Results

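In mouse macrophages, 583 protein-coding genes carried H3K79me2 peaks near a 5′ end whose sequence is poor in CpG dinucleotides, and this set of genes is described here. They are 583 of 21755 protein-coding genes on chromosomes 1 to 19 and X, and 583 of the 6658 of those genes that were marked (30.6% of coding genes were marked in all). The members were chosen by H3K79me2 peaks and by sequence. Marked genes had peaks over 200 bp or more of the window that runs 3 kb into the gene from its outermost annotated 5′ end, in the authors' list built on both replicates, called here the replicated list. A 5′ end was called CpG-poor where the ratio of observed to expected CpG in the 500 bp on both sides of it was below 0.4. The expected number is that of a sequence with the same C and G counts in random order. The 5406 marked genes at a ratio of 0.6 or more, called CpG-rich, are the comparison set, and 669 marked genes lay in between. Because the peaks and the sequence chose the members, their number, their CpG content and the presence of peaks in their windows are descriptions. Genes are not replicates and the data hold 1 group of samples, so no test between conditions was possible and none was made between gene classes.

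The cells were macrophages grown from the bone marrow of C57BL/6J mice and left unstimulated, and their H3K79me2 was mapped by ChIP-seq in 2 biological replicates that form 1 group. Per the labels the replicates share a donor identifier and a control experiment, 10 ng of DNA went into each library, and neither sex nor age is recorded. Whether separate animals or cultures were used is not said, so the spread between the replicates may be technical. The files used here are peak lists with no read counts, and library depth is therefore unknown. Replicate 1's own list held 22979 peaks over 63.5 Mb, replicate 2's own list 31577 peaks over 114 Mb and the replicated list 15559 peaks over 93.2 Mb. Of the defining macrophage genes with CpG-poor 5′ ends, Spi1, Adgre1, Cd68, Itgam, Fcgr1, Lyz2 and Mpeg1 were members, while Csf1r and Cybb had no covered base in the window at their outermost 5′ end and 18778 and 3976 bp covered further in. Mertk, another defining gene, was marked with a ratio between the classes (0.568). Of 116 CpG-poor genes on lists for other cell lineages, 1 was marked in the replicated list (0.862%), 1 in replicate 1's own list and 4 in replicate 2's. Over all CpG-poor coding genes the shares marked were 6.77%, 5.73% and 9.01%, in the same order of lists.

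As background, H3K79me2 is placed by the methyltransferase Dot1l on nucleosomes in the 5′ part of genes that are being transcribed. Most housekeeping genes start in CpG islands, stretches that kept their CpG dinucleotides because they stay unmethylated in the germ line. Many genes used in a single lineage start outside such islands, and in macrophages a large share of receptor, cytokine and interferon-response genes do. PU.1, encoded by Spi1, is the transcription factor that sets up much of the macrophage enhancer and promoter landscape, and it binds purine-rich sequence around a GGAA core.

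The 200 bases just upstream of 6 members show how little CpG their 5′ ends hold. They are the member with the highest fold of a peak over control in its window (Metrnl) and the most covered members of 5 functional lists described further on. Gnai2 and Lamp1, the 2 CpG-rich marked genes with the highest fold, stand below them for contrast, and Lamp1 overlaps another coding gene. Each line reads 5′ to 3′ on the gene's strand, from mm10, ends at the base before the outermost 5′ end, and has the CpG dinucleotides in capitals.
Metrnl upstream, chr11:121701344-121701543, plus strand: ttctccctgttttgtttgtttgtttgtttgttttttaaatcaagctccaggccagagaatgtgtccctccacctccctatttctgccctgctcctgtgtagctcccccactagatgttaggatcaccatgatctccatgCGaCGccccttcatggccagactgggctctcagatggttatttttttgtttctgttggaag
Lair1 upstream, chr7:4063205-4063404, minus strand: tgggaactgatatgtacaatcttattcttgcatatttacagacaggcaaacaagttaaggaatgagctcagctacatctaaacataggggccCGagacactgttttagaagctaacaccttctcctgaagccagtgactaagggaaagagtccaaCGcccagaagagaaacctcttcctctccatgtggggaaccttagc
Ptprc upstream, chr1:138175709-138175908, minus strand: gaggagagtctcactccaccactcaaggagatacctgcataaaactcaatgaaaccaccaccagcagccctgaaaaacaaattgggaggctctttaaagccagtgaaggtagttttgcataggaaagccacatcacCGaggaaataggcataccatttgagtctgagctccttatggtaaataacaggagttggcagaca
Nlrp3 upstream, chr11:59541368-59541567, plus strand: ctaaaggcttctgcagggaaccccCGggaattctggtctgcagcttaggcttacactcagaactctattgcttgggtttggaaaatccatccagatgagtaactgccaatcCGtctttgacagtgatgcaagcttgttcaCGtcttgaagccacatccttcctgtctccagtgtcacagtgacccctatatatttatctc
Trim30a upstream, chr7:104465194-104465393, minus strand: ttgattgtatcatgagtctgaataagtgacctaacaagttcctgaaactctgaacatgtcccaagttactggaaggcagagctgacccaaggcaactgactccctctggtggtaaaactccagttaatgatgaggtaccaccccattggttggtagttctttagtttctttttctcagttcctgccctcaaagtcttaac
Ctss upstream, chr3:95526586-95526785, plus strand: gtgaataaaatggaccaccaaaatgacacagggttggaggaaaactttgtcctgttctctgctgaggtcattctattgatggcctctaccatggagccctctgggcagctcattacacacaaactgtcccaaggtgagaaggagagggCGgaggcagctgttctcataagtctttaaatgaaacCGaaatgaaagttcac
Gnai2 upstream, chr9:107635368-107635567, minus strand: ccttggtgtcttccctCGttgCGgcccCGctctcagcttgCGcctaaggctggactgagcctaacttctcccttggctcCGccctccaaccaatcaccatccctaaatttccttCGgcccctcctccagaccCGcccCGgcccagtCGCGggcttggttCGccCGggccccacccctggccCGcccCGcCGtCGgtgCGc
Lamp1 upstream, chr8:13158961-13159160, plus strand: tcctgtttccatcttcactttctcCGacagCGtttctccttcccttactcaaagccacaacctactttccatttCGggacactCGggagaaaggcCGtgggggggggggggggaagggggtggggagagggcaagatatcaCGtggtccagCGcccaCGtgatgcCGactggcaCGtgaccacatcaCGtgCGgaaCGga
The upstream stretch of Trim30a holds 0 CpG, that of Ptprc 1, those of Metrnl, Lair1 and Ctss 2 each and that of Nlrp3 3, against 17 for Gnai2 and 13 for Lamp1. Over the whole 1000 bp around the 5′ end, members held a median of 14 CpG dinucleotides (quartiles 9 and 19), against 74 (60 and 92) in CpG-rich marked genes. The sequence rule fixed this gap. The GC content, which the rule does not set directly, had a median of 49.2% in members, against 61% in CpG-rich marked genes.

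CpG-poor genes were marked less often than CpG-rich genes in every list. Of 8617 coding genes with a CpG-poor 5′ end, 583 were marked in the replicated list (6.77%), against 5406 of 10066 CpG-rich genes (53.7%). In replicate 1's own list 494 CpG-poor genes were marked (5.73%), against 48.8% of CpG-rich genes and a background of 27.5% over all coding genes. In replicate 2's own list 776 CpG-poor genes were marked (9.01%), against 61.1% of CpG-rich genes and a background of 35.9%. The gap between the classes was larger than the gap between the replicates in either class. Without the olfactory receptor, vomeronasal receptor, keratin, defensin and serpin families, 582 of 6937 CpG-poor genes were marked (8.39%).

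The share marked went up with CpG content in each step of 0.1. It was 2.52% of the 1746 genes at a ratio below 0.1, 5.08% from 0.1 to 0.2, 9.55% from 0.2 to 0.3 and 11.2% from 0.3 to 0.4. Beyond the members it was 15.6% from 0.4 to 0.5, 38.2% from 0.6 to 0.7 and 70.7% of the 403 genes at 1 or more. The plot of the share marked by CpG ratio shows the same order in both replicates' own lists. No step stood at the limits that define the members: 89 members lay at 0.35 or more and 89 marked genes from 0.4 to below 0.45. The members nearest the CpG limit were Xpnpep1, Cpsf3 (overlapping 1 other coding gene) and Rdx, at 0.399, 0.398 and 0.397, and marked genes just past it included Tnfsfm13 and Wdr83, at 0.4005 and 0.4011. At the limit on covered bases, 8 members had less than 400 bp in the window, and 13 CpG-poor genes had some bases there but less than 200 bp. The members nearest it, Gm21983, AC140267.1 and Gm28374 with 208, 213 and 265 bp, all overlap other coding genes. Slc15a3, Ptms and Dusp3 fell short of it with 196, 156 and 151 bp.

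**Figure D1:**
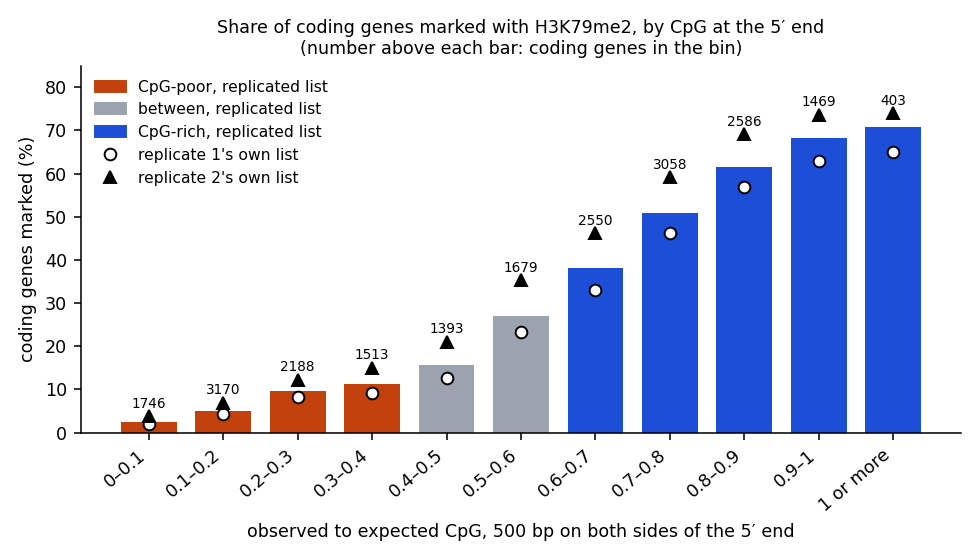
Share of coding genes marked with H3K79me2 (y axis, percent) by the ratio of observed to expected CpG around the 5′ end (x axis). Bars are the replicated list, open circles replicate 1's own list and triangles replicate 2's own list; the share is 2.52% in the lowest bin and 70.7% in the highest, with replicate 2 above replicate 1 in every bin.

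The members fell into 2 main kinds once all their annotated starts were considered. In 391 members (67.1%) every protein-coding transcript started in CpG-poor sequence. In 144 members (24.7%) the outermost 5′ end was CpG-poor while a coding transcript of the same gene that starts elsewhere had a ratio of 0.6 or more. A further 41 members (7.03%) had another start between the classes, and 7 had no protein-coding transcript start in the annotation used. In 43 of the 144 genes with a CpG-rich alternative (29.9%) the outermost 5′ end was not itself the start of a coding transcript, against 31 of the 391 with CpG-poor starts alone (7.93%). A CpG-rich stretch of 1 kb with at least 50% GC lay between 1 kb upstream and 3 kb downstream of the outermost 5′ end in 84.0% of the genes with a CpG-rich alternative and in 4.86% of those without. The rule asks for peaks within the same 3 kb, so it bears on these shares. Of all members, 250 (42.9%) had CpG-poor starts alone, overlapped no other coding gene and had no CpG-rich stretch or neighbouring CpG-rich start nearby. Of all 583 members, 193 (33.1%) overlapped another coding gene along their length and 149 (25.6%) within the window, where a peak could belong to either gene, against 15.1% of CpG-rich marked genes within the window.

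Peaks began in different places in the 2 kinds. The rule bounds these places, since genes whose peaks start more than 3 kb inside the outermost 5′ end are not members. In the members with CpG-poor starts alone, the replicated list covered 19.5% of the bases in the last 500 bp upstream, 60.2% in the first 500 bp of the gene and 86.8% from 1000 to 1500 bp. In the members with a CpG-rich alternative it covered 23.8% of the first 500 bp, 34.2% from 1000 to 1500 bp and 85.5% from 2500 to 3000 bp. CpG-rich marked genes had 6.91% of the bases covered in the last 500 bp upstream, 30.9% in the first 500 bp and 91.6% from 1000 to 1500 bp. Both replicates' own lists gave the same order in the first 500 bp. There the members with CpG-poor starts alone had 35.4% covered in replicate 1 and 67.8% in replicate 2, those with a CpG-rich alternative 13.3% and 25.6%, and CpG-rich marked genes 14.6% and 36.7%.

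The first covered base lay a median of 102 bp into the gene in members with CpG-poor starts alone and 1360.5 bp in those with a CpG-rich alternative, against 394 bp in CpG-rich marked genes. The very first base was covered in 161 members (27.6%), against 255 CpG-rich marked genes (4.72%), and among members in 30.9% of those with CpG-poor starts alone and in 22.2% of those with a CpG-rich alternative. In the replicated list the profile of members with CpG-poor starts alone shows no dip just upstream of the 5′ end, and that of CpG-rich marked genes does. For these members the replicates differed. Replicate 1's own list covered 8.80% from 1000 to 500 bp upstream and 7.83% in the last 500 bp, a small dip. Replicate 2's own list covered 21.7% and 27.0%. How far each annotated 5′ end lies from the start used in these cells was not tested.

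**Figure D2:**
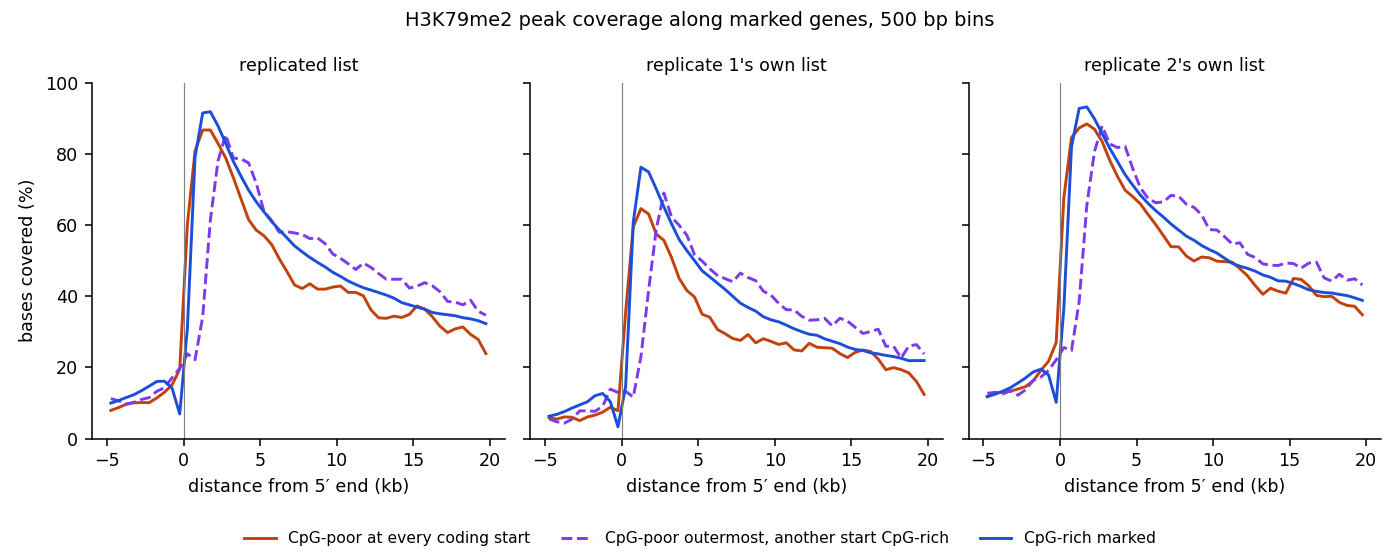
Share of bases covered by H3K79me2 peaks (y axis, percent) in 500 bp bins from 5 kb upstream to 20 kb downstream of the outermost 5′ end (x axis), in the replicated list and in each replicate's own list. In the replicated list the first 500 bp of the gene is 60.2% covered in members with CpG-poor starts alone, 23.8% in members with a CpG-rich alternative start and 30.9% in CpG-rich marked genes; only genes at least as long as a bin's end enter that bin.

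Members taken as a whole were shorter genes and had fewer covered bases. Their median length was 17931 bp (quartiles 8376.5 and 37723.5), against 26000.5 bp (11927.8 and 54295) in CpG-rich marked genes, and 9513.5 bp in CpG-poor genes that were not marked. The longest coding transcript in the annotation's basic set showed the same order in exon number, untranslated exons included. The median was 7 exons in members, against 10 in CpG-rich marked genes. The replicated list covered a median of 5176 bp per member, against 6535 bp per CpG-rich marked gene. In replicate 1's own list these medians were 2891 and 4003.5 bp, and in replicate 2's 6784 and 7748.5 bp. Within bins of gene length the order was not kept in every bin or list. Members had a median of 2657 bp covered, against 2615 bp in CpG-rich genes, among genes under 10 kb, and 6069 against 5802 bp from 10 to 30 kb. From 30 to 100 kb the medians were 13376 bp in members and 13505 bp in CpG-rich genes, and over 100 kb, where there were 35 members, 28858 bp in members and 27984 bp in CpG-rich genes. The differences in median within bins ran from −129 to 874 bp, and each is small beside the quartiles of either class. In replicate 1's own list members had the lower median in 3 of 4 bins. These medians were 1558 bp in members and 1669 bp in CpG-rich genes under 10 kb, 3025.5 and 3682 bp from 10 to 30 kb, 7456 and 8151 bp from 30 to 100 kb, and 15979 and 15284.5 bp over 100 kb, in the same order of classes. In replicate 2's own list members had the higher median in the shorter bins, with 3027 bp against 2868 bp in CpG-rich genes under 10 kb and 7549.5 bp against 6827 bp from 10 to 30 kb. They had the lower median in the longer bins, with 15875 bp against 16377 bp from 30 to 100 kb and 34599 bp against 37500 bp over 100 kb. From 30 to 100 kb members were thus lower in all 3 lists.

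The share of the gene under peaks had a median of 38.3% in members, against 33.7% in CpG-rich marked genes, in the replicated list. It was 47.5% in members, against 39.9% in CpG-rich marked genes, in replicate 2's own list, and the order turned round in replicate 1's, with 20.0% in members and 20.8% in CpG-rich marked genes. Within gene length the gap in the replicated list was small: 57.8% in members against 56.5% in CpG-rich genes under 10 kb, 34.9% against 33.1% from 10 to 30 kb and 26.6% against 25.5% from 30 to 100 kb. Over 100 kb members had the lower median, 17.8% against 19.8%. Full coverage, from end to end, was more frequent in members, with 23 (3.95%), against 13 CpG-rich marked genes (0.240%). All 23 had CpG-poor starts alone. Genes shorter than 10 kb made up 30.7% of members, against 21.0% of CpG-rich marked genes. Full coverage was not compared within gene length. Ptafr, the receptor for platelet-activating factor, was covered over all of its 18617 bp in the replicated list, over 17845 bp in replicate 1 and over 18617 bp in replicate 2. Gpr183, an oxysterol receptor that guides immune cells and overlaps 1 other coding gene, was covered over all of its 12645 bp, over 11885 bp in replicate 1 and over 12645 bp in replicate 2. Cd93, a C-type lectin-like receptor of myeloid cells, was covered over all of its 6924 bp, over 6917 bp in replicate 1 and over 6924 bp in replicate 2. These genes were named after their values were seen, and in each of them the replicates' covered bases lay close together. Peak strength did not separate the classes. The median fold of the strongest peak in the window was 11.98 in members, against 12.14 in CpG-rich marked genes. It was 7.44 against 7.75 in replicate 1 and 16.1 against 16.1 in replicate 2. The fold is the authors' value and ranks peaks within a list only.

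**Figure D3:**
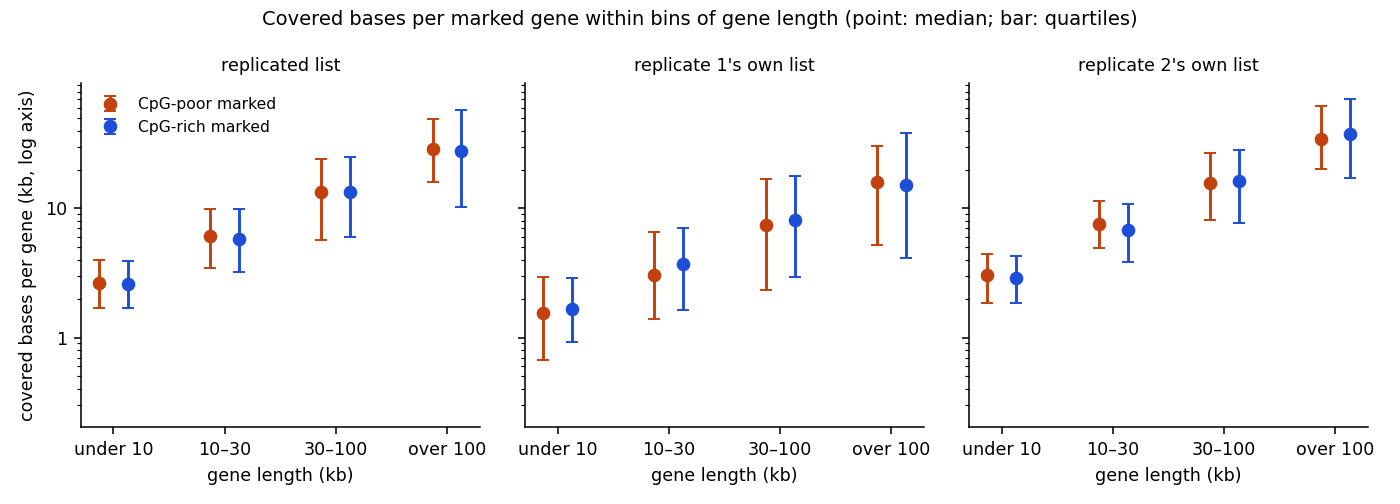
Covered bases per marked gene (y axis, kb, log axis) within bins of gene length (x axis, kb), with CpG-poor members left of CpG-rich marked genes; points are medians and bars run between the quartiles. In the replicated list the medians of under 10 kb genes are 2657 bp in members and 2615 bp in CpG-rich genes, and those of genes over 100 kb are 28858 and 27984 bp.

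The members were not all marked in each replicate alone. Of the 583, 494 (84.7%) were marked in both replicates' own lists, against 90.7% of CpG-rich marked genes. In replicate 1's own list 63 members (10.8%) had no covered base anywhere in the gene, against 7.12% of CpG-rich marked genes, and in replicate 2's own list this held for 2 members. Cass4 was 1 of them, with 1095 bp in the replicated list at a fold of 2.85 and no base in either replicate's own list. The longest covered members without a base in replicate 1 were Il21r, Gm28035 (overlapping 3 other coding genes), Nmi, Zkscan17 and Gm4951. Il21r, which encodes the interleukin-21 receptor, had 0 bp in replicate 1, 23193 bp in replicate 2 and 12687 bp in the replicated list. Replicate 2's list covered more of the genome than replicate 1's, and depth in either is unknown.

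The 2 kinds of member differed in what they encode. The genes were set against 14 lists of macrophage and immune genes. These lists were written from general knowledge, with earlier results of these data known, so the shares are descriptions. On the lists stood 381 of the 8617 CpG-poor coding genes. Of the 391 members with CpG-poor starts alone, 156 stood on at least 1 of these lists (39.9%), as did 3 of the 144 with a CpG-rich alternative start (2.08%), against 104 of the 5406 CpG-rich marked genes (1.92%). Read the other way, 166 of the 381 CpG-poor genes on the lists were marked (43.6%), 151 in replicate 1's own list and 230 in replicate 2's, against 6.77% of all CpG-poor genes. The CpG-rich genes on the lists were marked more often still: 104 of 141 (73.8%), with 98 in replicate 1 and 118 in replicate 2, against 53.7% of all CpG-rich genes. Of the listed genes between the classes, 58 of 83 were marked (69.9%), against 21.8% of all genes between the classes. These 58 were among 669 marked genes between the classes. The bar plot of the lists shows which groups hold CpG-poor genes at all.

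**Figure D4:**
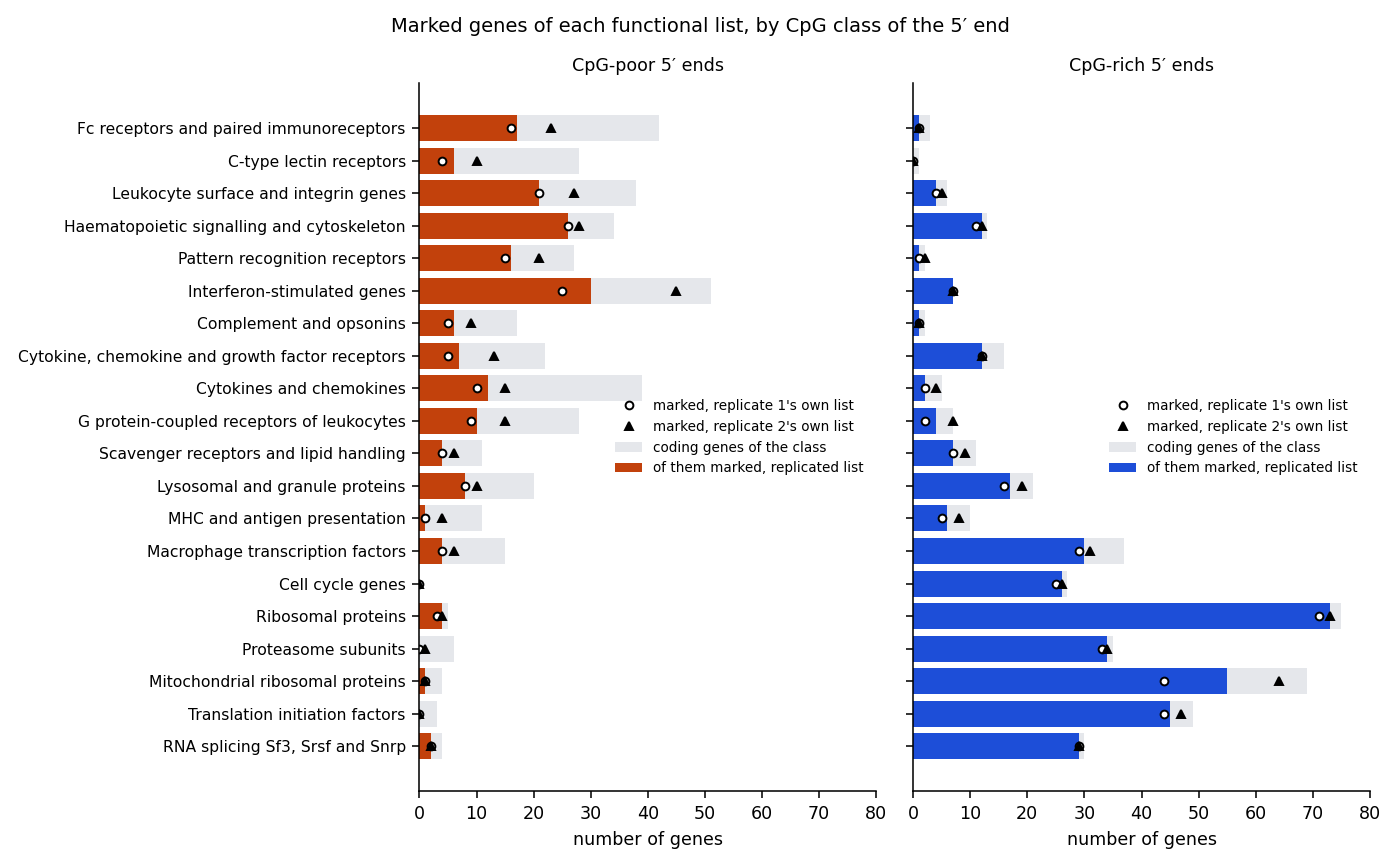
Number of genes (x axis) on each functional list with CpG-poor 5′ ends (left) and CpG-rich 5′ ends (right); grey bars are all coding genes of the class, coloured bars those marked in the replicated list, open circles and triangles those marked in replicate 1's and replicate 2's own lists. Interferon-stimulated genes are mostly CpG-poor, with 30 of 51 marked, and ribosomal protein genes mostly CpG-rich, with 73 of 75 marked.

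Among receptors that read antibodies and other ligands through paired activating and inhibitory forms, 17 of 42 CpG-poor genes were marked, 16 in replicate 1 and 23 in replicate 2, against 1 of 3 CpG-rich genes. Lair1, an inhibitory receptor for collagen, had the most covered bases, with 34908 bp in replicate 1, 45162 bp in replicate 2 and 44746 bp (74.8% of the gene) in the replicated list. Its upstream stretch printed above holds the PU.1-type letters described further on. Cd300lf and Cd300a, receptors for membrane lipids of which the first overlaps 1 other coding gene, followed. Cd300lf had 6534 bp in replicate 1, 13742 bp in replicate 2 and 11837 bp in the replicated list, and Cd300a had 3872, 11050 and 10137 bp. All 3 were covered more widely in replicate 2 than in replicate 1. Of C-type lectin receptors, 6 of 28 CpG-poor genes were marked. Mrc1, the mannose receptor, had 13490 bp in replicate 1, 26182 bp in replicate 2 and 14213 bp in the replicated list, and the whole of its 3000 bp window was covered in each. Clec4d, a receptor for mycobacterial glycolipid, had 12065 bp (91.7% of the gene), and Clec2d, a ligand of a natural killer cell receptor, had 4966 bp (83.9%).

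Leukocyte surface and integrin genes had 21 of 38 CpG-poor genes marked, 21 in replicate 1 and 27 in replicate 2, against 4 of 6 CpG-rich genes. Ptprc encodes CD45, the phosphatase found on all nucleated blood cells. It had 50077 bp covered in replicate 1, 57256 bp in replicate 2 and 56482 bp in the replicated list, with folds of 18.4, 40.3 and 31.2 in its window. Cd44, the hyaluronan receptor, had 39868, 57103 and 55283 bp. Cd180, a Toll-like receptor relative that overlaps 1 other coding gene, had 36726, 44755 and 44358 bp, which is 96.3% of the gene in the replicated list. Laptm5, a lysosomal membrane protein of blood cells, stood second among all members by fold. Its fold was 21.2 in replicate 1, 39.8 in replicate 2 and 33.7 in the replicated list, with 14811, 16953 and 16745 bp covered. In all 4 genes the replicated list lay close to replicate 2 and above replicate 1.

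Haematopoietic signalling and cytoskeleton genes had the highest share of the immune lists with more than 20 CpG-poor genes: 26 of 34 were marked, 26 in replicate 1 and 28 in replicate 2, against 12 of 13 CpG-rich genes. Fyb, an adaptor between receptor signals and integrins, had 67001 bp in replicate 1, 89693 bp in replicate 2 and 84496 bp in the replicated list; another of its starts lay between the classes. Dock2, a Rac activator of leukocytes that overlaps 1 other coding gene, had 48006, 65872 and 51190 bp, which is only 9.2% of its 557078 bp. Inpp5d, which encodes the inositol phosphatase SHIP1, had 41442, 52802 and 48057 bp. Vav1, another Rac activator, had 16950, 30755 and 24278 bp and a fold of 32.5. As a ratio of covered bases, the replicates of these 4 genes were farthest apart for Vav1 and closest for Inpp5d.

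Pattern recognition receptors had 16 of 27 CpG-poor genes marked, 15 in replicate 1 and 21 in replicate 2, against 1 of 2 CpG-rich genes. Nlrp3, the inflammasome sensor, had 12908 bp in replicate 1, 18634 bp in replicate 2 and 17944 bp in the replicated list, starting 1500 bp inside the outermost 5′ end. Tlr4, the lipopolysaccharide receptor, had 15979, 17873 and 17710 bp. Tlr7, a receptor for single-stranded RNA, had 15539, 20402 and 16403 bp, starting 2366 bp in. The lowest CpG ratio of all members was that of Nlrp1b, another inflammasome sensor, at 0.019. Nlrp1b held 1 CpG in 1000 bp, and 1048 bp were covered in replicate 1, 1111 bp in replicate 2 and 1114 bp in the replicated list.

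Interferon-stimulated genes are switched on by interferon, and many restrict viruses. In these unstimulated cells 30 of 51 CpG-poor genes on the list were marked in the replicated list, 25 in replicate 1's own list and 45 in replicate 2's, against 7 of 7 CpG-rich genes in each. Trim30a, a regulator of inflammasome signalling, had 29536 bp in replicate 1, 36107 bp in replicate 2 and 30814 bp in the replicated list, with a CpG ratio of 0.059. Epsti1 had 7456, 22465 and 19066 bp, and Slfn8, a Schlafen family gene, had 8495, 12361 and 12324 bp. Trim30d and Trim30c, next to Trim30a and with ratios of 0.021 and 0.039, differed more between the replicates. Trim30d had 1002 bp in replicate 1, 13508 bp in replicate 2 and 8391 bp in the replicated list, and Trim30c had 1045, 10320 and 8680 bp. Ifit3, Sp140, Phf11d and Sp110 had no base in replicate 1 and were named after their values were seen. Trim30, Schlafen and Ifi200 genes have near copies beside them, and the placing of reads that match several copies is not given here.

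Secreted proteins and their receptors were marked in a smaller share than interferon-stimulated genes. Of cytokine and chemokine genes, 12 of 39 CpG-poor genes were marked, 10 in replicate 1 and 15 in replicate 2, against 2 of 5 CpG-rich genes. Il15, a cytokine that maintains natural killer and memory T cells, stood out with 35527 bp in replicate 1, 50211 bp in replicate 2 and 49513 bp in the replicated list. Grn, which encodes progranulin and overlaps 1 other coding gene, had 5230 bp (77.7% of the gene), and the chemokine gene Ccl9 had 3110 bp (54.4%). Of cytokine, chemokine and growth factor receptors, 7 of 22 CpG-poor genes were marked, against 12 of 16 CpG-rich genes. Besides Il21r these included Csf2rb, the common β chain of the GM-CSF receptor, with 4494 bp in replicate 1, 10546 bp in replicate 2 and 9023 bp in the replicated list, and its neighbour and near copy Csf2rb2 with 2891, 9111 and 7824 bp. Of complement genes, 6 of 17 CpG-poor genes were marked, against 1 of 2 CpG-rich genes. C5ar1 and C3ar1, the receptors for the complement fragments C5a and C3a, had 11868 bp (92.7%) and 7236 bp (80.2%) covered, and C1qb, a chain of C1q, had 5441 bp (89.8%).

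Of the G protein-coupled receptors of leukocytes, 10 of 28 CpG-poor genes were marked, against 4 of 7 CpG-rich genes. Adgre1, which encodes the macrophage marker F4/80, had 35754 bp in replicate 1, 58747 bp in replicate 2 and 51555 bp in the replicated list. Gpr141 had 2690, 30764 and 22564 bp, the wider spread between the replicates of the 2. Scavenger and lipid genes were split between the classes, with 4 of 11 CpG-poor genes marked, against 7 of 11 CpG-rich genes. The 4 were Scarb2, a lysosomal membrane receptor with a CpG-rich alternative start (35452 bp), Msr1, the class A scavenger receptor (22282 bp, ratio 0.033), Stab1, which overlaps 1 other coding gene (11929 bp), and the lipid droplet gene Plin2 (10402 bp). Lysosomal genes had 8 of 20 CpG-poor genes marked, against 17 of 21 CpG-rich genes. Ctss, which encodes the antigen-processing protease cathepsin S, had 10858, 19297 and 13430 bp, Adam8, a membrane metalloprotease, 7706, 9795 and 9566 bp, and Ctsh, which encodes cathepsin H, 2022, 5751 and 4381 bp, each in replicate 1, replicate 2 and the replicated list. Of genes of the major histocompatibility complex and antigen presentation, 1 of 11 CpG-poor genes, H2-T24, was marked with 7726 bp, against 6 of 10 CpG-rich genes. Both counts lie near the 6.77% and 53.7% marked among all CpG-poor and all CpG-rich genes.

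Transcription factors of macrophages were mostly CpG-rich: 4 of 15 CpG-poor genes were marked, against 30 of 37 CpG-rich genes. Runx1, a regulator of blood cell formation, had a CpG-rich alternative start and 120758 bp covered in replicate 1, 209700 bp in replicate 2 and 202317 bp (90.0% of the gene) in the replicated list. Spi1 had CpG-poor starts alone and 23010, 30226 and 27653 bp (82.9%). In the window at its outermost 5′ end, 282 bp were covered in replicate 1 and 2391 bp in replicate 2. Tfec, a relative of Mitf, had 10896, 29465 and 27760 bp, and Lyl1, a blood cell factor gene that overlaps 1 other coding gene, had 1944, 2697 and 2099 bp. The only CpG-poor gene on the lists for other lineages that was marked in the replicated list was Blnk, an adaptor gene of B cell receptor signalling, with 22365 bp in replicate 1, 27681 bp in replicate 2 and 26688 bp in the replicated list.

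Housekeeping gene families had few CpG-poor genes, and the marked ones named here all had a CpG-rich alternative. Of ribosomal protein genes, 4 of 5 CpG-poor genes were marked, against 73 of 75 CpG-rich genes, and none of the 4 had CpG-poor starts alone. These were Rps14 and Rps10, which overlap 1 other coding gene each, Rps2 and Rpl17, with 4698, 3323, 2533 and 1702 bp covered. In Rpl17 the first covered base lay 2249 bp in and in Rps10 1565 bp in. The mitochondrial ribosomal protein gene Mrpl20 (4519 bp) and the spliceosome genes Snrpc (6102 bp) and Snrpa1 (2926 bp, overlapping 1 other coding gene) also had CpG-rich alternatives. Of proteasome subunit genes, 0 of 6 CpG-poor genes were marked, with 1 of 6 in replicate 2's own list, against 34 of 35 CpG-rich genes. Of translation initiation factor genes, 0 of 3 were marked, against 45 of 49. Over all coding genes, 6.77% of CpG-poor and 53.7% of CpG-rich genes were marked, so 0 of 6 and 0 of 3 lie near the CpG-poor share. No cell cycle gene on the list was CpG-poor, and 26 of 27 CpG-rich ones were marked.

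Of all 583 members, 417 stood on none of the 14 macrophage and immune lists. Some larger families were also taken by name, to be read beside the 6.77% marked among all CpG-poor genes. Of the Zfp zinc finger genes, which encode DNA-binding proteins that often silence transposons, 18 of 96 CpG-poor genes were marked, against 102 of 202 CpG-rich genes, and 14 of the 18 had CpG-poor starts alone. Zfp120 had 16270 bp in replicate 1, 17505 bp in replicate 2 and 17454 bp in the replicated list, and Zfp958 had 10428, 11743 and 11754 bp. Of the Slc transporter genes, 4 of 130 CpG-poor genes were marked, against 74 of 167 CpG-rich genes. They were Slc4a7, a bicarbonate transporter (16471 bp), Slc40a1, the iron exporter ferroportin with a CpG-rich alternative start (6068 bp, 0 bp in replicate 1 and 8763 bp in replicate 2), Slc25a45 (5252 bp) and Slc11a1, the phagosomal metal transporter Nramp1 (2643 bp). The membrane-spanning Ms4a family had 4 of 19 CpG-poor genes marked: Ms4a7 (10007 bp), Ms4a6b (4928 bp), Ms4a6d (4911 bp) and Ms4a6c (3571 bp). Of Rab GTPase genes 1 of 8 CpG-poor genes, Rab7b, was marked (8968 bp), and of serpins 1 of 58, Serpinb8 (5650 bp). None of 1131 olfactory receptor, 330 vomeronasal receptor, 98 keratin and 63 defensin genes with CpG-poor 5′ ends was marked in any of the 3 lists.

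The members with the strongest and widest peaks came from both kinds. By fold, Metrnl, which encodes a secreted protein of the meteorin family, stood first at 35.3 in the replicated list, 22.3 in replicate 1 and 43.4 in replicate 2. Its outermost 5′ end had a CpG ratio of 0.148, and a coding transcript that starts elsewhere in the gene had 0.72. Laptm5 (33.7), the actin-capping gene Capza2 (32.7), Vav1 (32.5), the lysosome-positioning gene Plekhm2 (31.2), Ptprc (31.2) and the genes Mbnl1, Hnrnpm, Cd180 and Bcl10 at 30.8 followed. Hnrnpm and Mbnl1 encode RNA splicing regulators, Bcl10 an adaptor of nuclear factor κB signalling, and Hnrnpm and Cd180 overlap 1 other coding gene each. Of these 10, Metrnl, Capza2, Plekhm2, Mbnl1, Hnrnpm and Bcl10 had a CpG-rich alternative start, and Laptm5, Vav1, Ptprc and Cd180 had CpG-poor starts alone.

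By covered bases, Pid1, an adaptor of insulin signalling, stood first. It had 151702 bp in replicate 1, 210854 bp in replicate 2 and 203744 bp in the replicated list, but its window held only 502 bp at a fold of 3.18, and neither replicate's own list had a peak there. Runx1 (202317 bp) and Mbnl1 (148042 bp) followed, then the G protein subunit gene Gng2 (89776 bp), Fyb (84496 bp), Ptprc (56482 bp), Cd44 (55283 bp), the adaptor gene Nck2 (54181 bp), Adgre1 (51555 bp) and Dock2 (51190 bp). The plot of the named members shows that replicate 1 covered a smaller share than replicate 2 in all of them. As a share of the gene the gap among the plotted members was widest in Nck2, with 19.6% in replicate 1 and 63.0% in replicate 2.

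**Figure D5:**
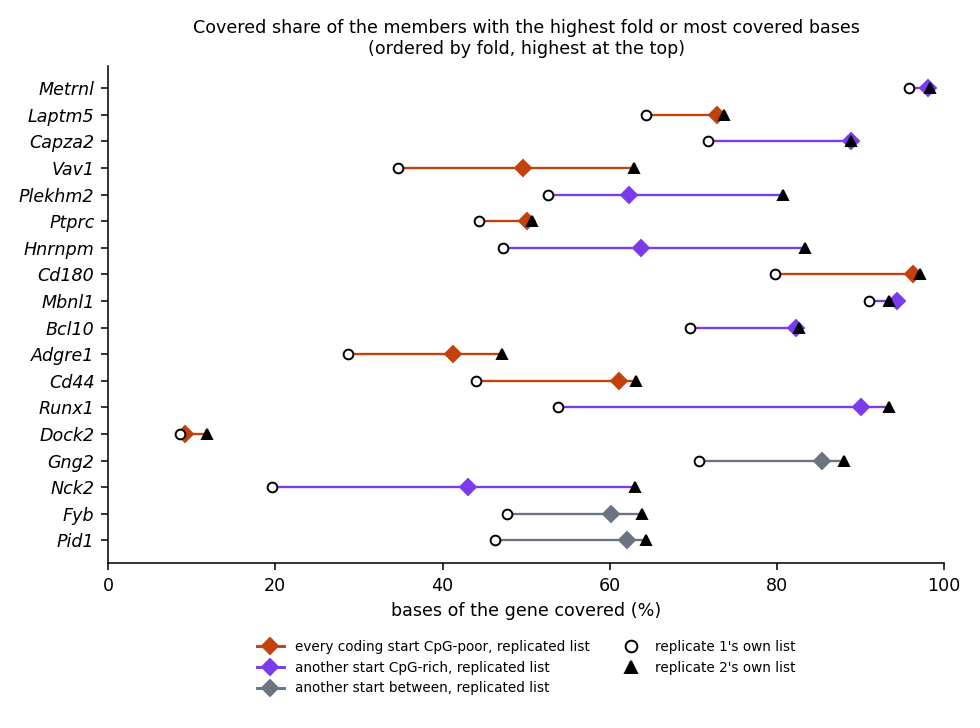
Share of the gene covered by peaks (x axis, percent) for the members with the highest fold or the most covered bases (y axis, ordered by fold). Diamonds are the replicated list, open circles replicate 1 and triangles replicate 2; colours separate the kinds of start. Metrnl is covered over 98.1% and Dock2 over 9.2% in the replicated list, and the circle lies left of the triangle in every gene.

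The proteins were searched for stretches that could cross a membrane. A stretch of 19 residues with a mean hydropathy of at least 1.6 was found in 48.1% of the 385 translated genes with CpG-poor starts alone and in 22.9% of those with a CpG-rich alternative, against 27.4% of CpG-rich marked genes and 43.3% of all coding genes. Members as a whole had it in 40.9%, so their share lies near that of all coding genes. Such stretches include signal peptides. CpG-poor genes that were not marked had it in 58.1%. At least 3 stretches were found in 11.7% of members with CpG-poor starts alone, against 28.8% of CpG-poor unmarked genes. Olfactory and vomeronasal receptors, which span the membrane several times, are part of the unmarked class.

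Of the short sequence patterns searched near the 5′ end, some also differed in share between the 2 kinds. Each was searched from 300 bases upstream to 100 downstream of the outermost 5′ end, on both strands, and a match is a description of letters and not of a binding site. The groups differ in GC content around the 5′ end. Its median was 50% in members with CpG-poor starts alone and 46.8% in those with a CpG-rich alternative. It was 45.9% in CpG-poor unmarked and 61% in CpG-rich marked genes. Whether GC content bears on the shares of each pattern was not tested. The letters GAGGAAG, a core of PU.1 sites, were in 143 of the 391 members with CpG-poor starts alone (36.6%) and in 25 of the 144 with a CpG-rich alternative (17.4%), against 18.1% of CpG-poor unmarked genes, 16.5% of CpG-rich marked genes and 17.0% of all coding genes. The letters GAAANNGAA, part of the interferon-stimulated response element and able to overlap the PU.1 letters, were in 20.5% of members with CpG-poor starts alone and 11.1% of those with a CpG-rich alternative, against 13.8% of CpG-poor unmarked and 9.56% of CpG-rich marked genes. A pair of functional lists, set side by side after their values were seen, held the patterns in different shares. GAGGAAG was in 8 of the 17 Fc and paired receptor members and in 3 of the 30 interferon-stimulated members, while GAAANNGAA was in 4 of the 17 and in 16 of the 30. Other lists varied. The pattern recognition receptors had GAGGAAG in 5 and GAAANNGAA in 5 of 16 members. The cytokines and chemokines had them in 5 and 4 of 12. Haematopoietic signalling and cytoskeleton genes had them in 10 and 4 of 26, and leukocyte surface and integrin genes in 9 and 5 of 21. Trim genes taken by name leaned the other way, with 3 and 5 of 8.

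The remaining patterns were searched in the same way. C/EBP letters (TTGCNNAA) were in 14.9% of members, against 18.9% of CpG-poor unmarked genes, 9.49% of CpG-rich marked genes and 13.7% of all coding genes. AP-1 letters (TGANTCA) were in 11.7% of members, against 13.8%, 4.83% and 8.75%, and Runx letters (TGTGGTT) in 9.43%, against 9.29%, 4.03% and 6.49%, in the same order of classes. Between the 2 kinds of member these patterns differed little. C/EBP letters were in 15.9% of members with CpG-poor starts alone and in 13.2% of those with a CpG-rich alternative. For AP-1 letters these shares were 12.3% and 11.8%, and for Runx letters 9.72% in both. TATAAA from 45 to 15 bases upstream on the gene's strand was in 2.06% of members, against 5.44% of CpG-poor unmarked genes, 0.684% of CpG-rich marked genes and 2.67% of all coding genes. The Sp1 letters GGGCGG and the Ets letters CCGGAAG hold a CpG, so the rule bears on their frequency. They were in 21.6% and 5.49% of members, against 11.4% and 2.46% of CpG-poor unmarked genes and 76.4% and 27.9% of CpG-rich marked genes. Members with CpG-poor starts alone had them in 25.6% and 7.16%, and those with a CpG-rich alternative in 11.8% and 2.78%. The YY1 letters AAGATGGC were in 0.858% of members, against 1.57% of CpG-poor unmarked genes and 8.25% of CpG-rich marked genes.

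Some members lay beside one another in gene clusters. Another member had its 5′ end within 100 kb of 188 of the 583 (32.2%), against 66.8% of the CpG-rich marked genes, which are far more numerous. The longest run, of 6 members with CpG-poor starts alone, held Cd300a, Cd300lb, Cd300ld, Cd300c2, Cd300ld3 and Cd300lf on chromosome 11 from 114890041 to 115133992 (mm10). Within it the covered bases in the replicated list ran from 1443 bp in Cd300ld3 to 11837 bp in Cd300lf, and every gene had bases in both replicates' own lists. On chromosome 7 from 104244457 to 104507849 lay Trim34a, Trim12a, Trim30c, Trim30a and Trim30d, and on the same chromosome from 140948958 to 141017924 a run with Ifitm2, Ifitm3 and Ifitm6, which encode restriction factors of virus entry. Ifitm3 had 1185 bp covered in each of the 3 lists, which is the whole gene. The chemokine genes Ccl9, Ccl6, Ccl3 and Ccl4 lay together on chromosome 11 from 83572919 to 83664683. Ccl3 had 0 bp in replicate 1, 1196 bp in replicate 2 and 442 bp in the replicated list, while Ccl9 had 2991, 2931 and 3110 bp. Genes of such runs are neighbours and near copies, so their marks are not separate observations, and the genes of these runs were named after their values were seen.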

How the data were processed

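Peak lists of H3K79me2 ChIP-seq in 2 biological replicates on mm10 were used as deposited. Per the deposited text notes, there is 1 list for each replicate alone, 1 called on pooled alignments and 1, the replicated list, that draws on both replicates. The sources used here do not name the aligner, the peak caller or its thresholds, or say how peaks entered the replicated list. The fold (a ratio over control) of each peak was computed by the authors and was used for ranking peaks inside 1 list and for a filter. The deposited score of at most 1000 was not used. The −log10 p and −log10 q values are the authors', and the q values served to count peaks with q over 0.05: 3 in the replicated list, 5 in replicate 1's, 9 in replicate 2's and 12 in the pooled list. No depth could be read from the files, so no interval that needs it is given, and an unmarked gene is one without a called peak there.

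Overlapping peaks of a list were joined, and the joined intervals were laid over GENCODE M21 coding genes, with CpG content read from the GRCm38 sequence that RefSeq distributes (mm10). The ratio is the CpG count times the length over the product of the C and G counts. The fold of a gene is that of the strongest peak touching its window. Proteins were translated from the GENCODE coding sequences of 21382 genes and scored by Kyte-Doolittle hydropathy, in place of the RefSeq proteins first planned. The 39 gene lists and 9 motifs were written from general knowledge or taken by gene name. The members and lists were chosen with earlier results of these data known. The text names the 10 members with the highest fold, the 10 with the most covered bases, up to 3 members per list with the most covered bases (all where there were 5 or fewer), members with the lowest CpG ratio, those nearest the limits and the 5 longest covered without a base in 1 replicate, and says where a gene was named after its values were seen. Some genes that this rule takes in are not reported. All comparisons are descriptions without a test. The code was checked on simulated intervals and sequences. Python 3.11.15, pandas 2.3.3, NumPy 2.4.6, Biopython 1.88 and matplotlib 3.10.9 were used. Alternatives covered the peak list, the peak strength, the covered minimum, the 5′ end, the CpG window, formula and limit, and the choice of genes.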

Additional observations from a re-analysis of the deposited data

How the results depend on the processing

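Over 14 alternative settings the members numbered 390 to 776 (583 in the replicated list), and in 14 of 14 the CpG-poor class had the lower marked share and the lower median of covered bases. When peaks below the median fold were dropped, 39.8% of CpG-rich genes were marked. In the replicated list the lower covered bases of members held within gene length only from 30 to 100 kb: the difference in median of members minus CpG-rich marked genes was −1359 bp over all lengths, and 42, 267, −129 and 874 bp among genes under 10 kb, from 10 to 30 kb, from 30 to 100 kb and over 100 kb. In replicate 1's own list members were lower in 3 of these 4 bins. Gene length went with the covered bases in both classes.

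The median length of members was 17557.5 bp with the pooled list, 18283.5 bp with a minimum of 1000 bp covered, 18373 bp with a CpG window of 250 bases or a limit of 0.45, 17205 bp with a window of 1000 bases, 19508.5 bp without overlapping genes and 15130 bp where all coding starts lay in 1 class. Each lay below the 26000.5 bp of CpG-rich marked genes in the replicated list under the main settings. The length of CpG-rich marked genes under these alternatives is not given, so whether the order holds in each was not tested. With a single replicate's list the median length of members was 17462 to 17894.5 bp. The median covered bases were then 3379 to 5428.5 bp in members and 4602.5 to 6670.5 bp in CpG-rich marked genes, and the covered share of members 24.7% to 40.5%, each lower with replicate 1 alone. No paired analysis was possible because the 2 samples form 1 group. Depth is unknown, so whether genes marked in 1 list alone reflect depth was not tested.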

Other observations

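Among the CpG-poor genes on the 14 macrophage and immune lists, 215 were not marked in the replicated list, and several had peaks elsewhere or in replicate 2 alone. Ptpn6, which encodes the phosphatase SHP-1, had 9195 bp covered in the replicated list and none in the window at its outermost 5′ end. Replicate 2's own list had 664 bp in that window and replicate 1's had none. In the replicated list Aim2, a sensor of cytosolic DNA that overlaps 1 other coding gene, had 32916 bp. Atf3, a stress-response transcription factor, had 9764 bp there, and neither gene had any in the window. Others had bases in replicate 2's own list and none in replicate 1's or in the replicated list: Clec4a1 had 9644 bp there, Cd86, a costimulatory ligand of T cells, 9396 bp, Iigp1, an interferon-induced GTPase, 7860 bp, and Irf7, a transcription factor of the interferon response that overlaps 1 other coding gene, 3245 bp. C1qa, a chain of C1q beside the members C1qb and C1qc, had all of its 2887 bp covered in replicate 2 and 0 bp in replicate 1 and in the replicated list. Apoe, a lipid carrier secreted by macrophages, likewise had 3080 bp in replicate 2 and 0 bp in both other lists. These genes were named after their values were seen.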
